A study of Rattus norvegicus with 10 samples.

Results

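The Egr, Nr4a, Ier and Dusp1 early genes are 10 genes of the primary transcriptional response: Egr1, Egr2, Egr3, Nr4a1, Nr4a2, Ier2, Ier3, Dusp1, Zfp36 and Klf4. They were taken by symbol, as every probe set that the platform annotation gives exactly 1 gene symbol from that list, which yielded 13 probe sets for 10 of the 14217 genes named on the array. AP-1 subunits are not among them. Expression was measured on 10 arrays from 5 mammary tumours, 66D2, 67D3, 45D3, 49I1 and 51I1, of Bloom-Richardson grade II. The final group holds the 5 tumours at sacrifice, at 19 weeks of age and in week 7 after biopsy. Those rats had received hydroxytyrosol, an olive oil phenol, by gavage for 6 weeks, with a dose of 0.5 mg/kg given on 5 days of each week. The basal group holds the same 5 tumours as untreated needle biopsies, taken at 12 weeks of age when the tumour reached 2 cm3. All 10 samples came from female Sprague-Dawley rats given a single oral dose of 100 mg/kg of the carcinogen DMBA. The sample labels describe the final piece as the total tumour and the basal piece as a Trucut biopsy, while the design text calls both Trucut samples. No later sample without hydroxytyrosol was analysed here, so treatment, age, tumour growth and sampling cannot be told apart. Nothing in the labels says whether the tumours came from separate animals. The p-values therefore measure how the difference between final and basal samples varied over these 5 tumours.

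Early response genes are transcribed within minutes of a growth factor, stress or injury signal, from factors such as SRF and CREB that already sit at their promoters. Their mRNAs are short-lived, and many of their products, among them phosphatases and RNA decay factors, shut the same signal down again. In mammary epithelium they respond to growth factors, and in excised tissue they also respond to handling, so they are widely used as markers of recent stimulation.

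No member reached a limma adjusted p under 0.05 for final against basal samples, and 0 of 18625 tested probe sets (0%) did so, while 1494 (8.02%) had an unadjusted p under 0.05. Ier3 was lower in the final sample of all 5 tumours, with a mean difference of -0.92 on the log2 scale. Egr1, Egr2, Nr4a1, Nr4a2, Ier2, Dusp1 and Zfp36 had mean differences of -0.27 to -0.86, with the largest differences in the tumours 67D3 and 45D3. Klf4 was higher in the final sample of 4 tumours and lower in 45D3, where it differed by -2.12. Egr3 was too dim to test. The signals are the authors' RMA values on the log2 scale, in which a difference of 1 is a doubling, and values per sample below follow the tumour order 66D2, 67D3, 45D3, 49I1 and 51I1. Differences are final minus basal, fitted over 18625 probe sets with limma and the tumour as a block.

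The tumour label was checked against 8 luminal epithelial markers, which include the keratins Krt8, Krt18 and Krt19 and the adhesion proteins Epcam and Cdh1. All 8 were above the dim cutoff of 5.14, and their median signal lay between 11.64 and 12.10 in final arrays and between 11.59 and 12.04 in basal arrays. The RNA control differed between arrays. The 3′ minus 5′ signal of the hexokinase control, which widens when RNA is degraded or labelled incompletely, was 0.89 to 1.10 in final arrays and 0.97 to 2.36 in basal arrays. The biopsies of 45D3 (2.36) and 67D3 (2.03) stood apart, the next basal value being 1.29 in 51I1. The same measure of the GAPDH control set apart the 45D3 biopsy (0.48) but not that of 67D3, where it was 0.28 in the final and 0.27 in the basal array, and it was 0.026 to 0.28 in all final arrays. The median signal of an array was 7.75 to 7.80 in final and 7.67 to 7.79 in basal arrays. In whole tumour pieces, fewer cells of a type and less RNA per cell cannot be told apart.

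Of the 10 genes, 9 had a tested probe set. Egr3 was left out with the dimmest 40% of the table. The mean difference was negative for 9 of the 9 tested genes, where 50% of all tested probe sets were negative, and the median difference was -0.55 against -0.0003 over all tested probe sets. At an unadjusted p under 0.05 there was 1 member, Ier3, or 1 of 9, against 4.59% of all probe sets lower at that threshold. Final samples lay below basal samples in all 5 tumours for 2 of the 9, Ier3 and Zfp36, against 4.75% of all probe sets. With arrays centred on their median or quantile normalized it was Ier3 alone. Every final sample lay below every basal sample for 0 of the 9, against 1.07% of all probe sets. These counts were read on genes picked with earlier results known, so they carry no test.

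**Figure D1:**
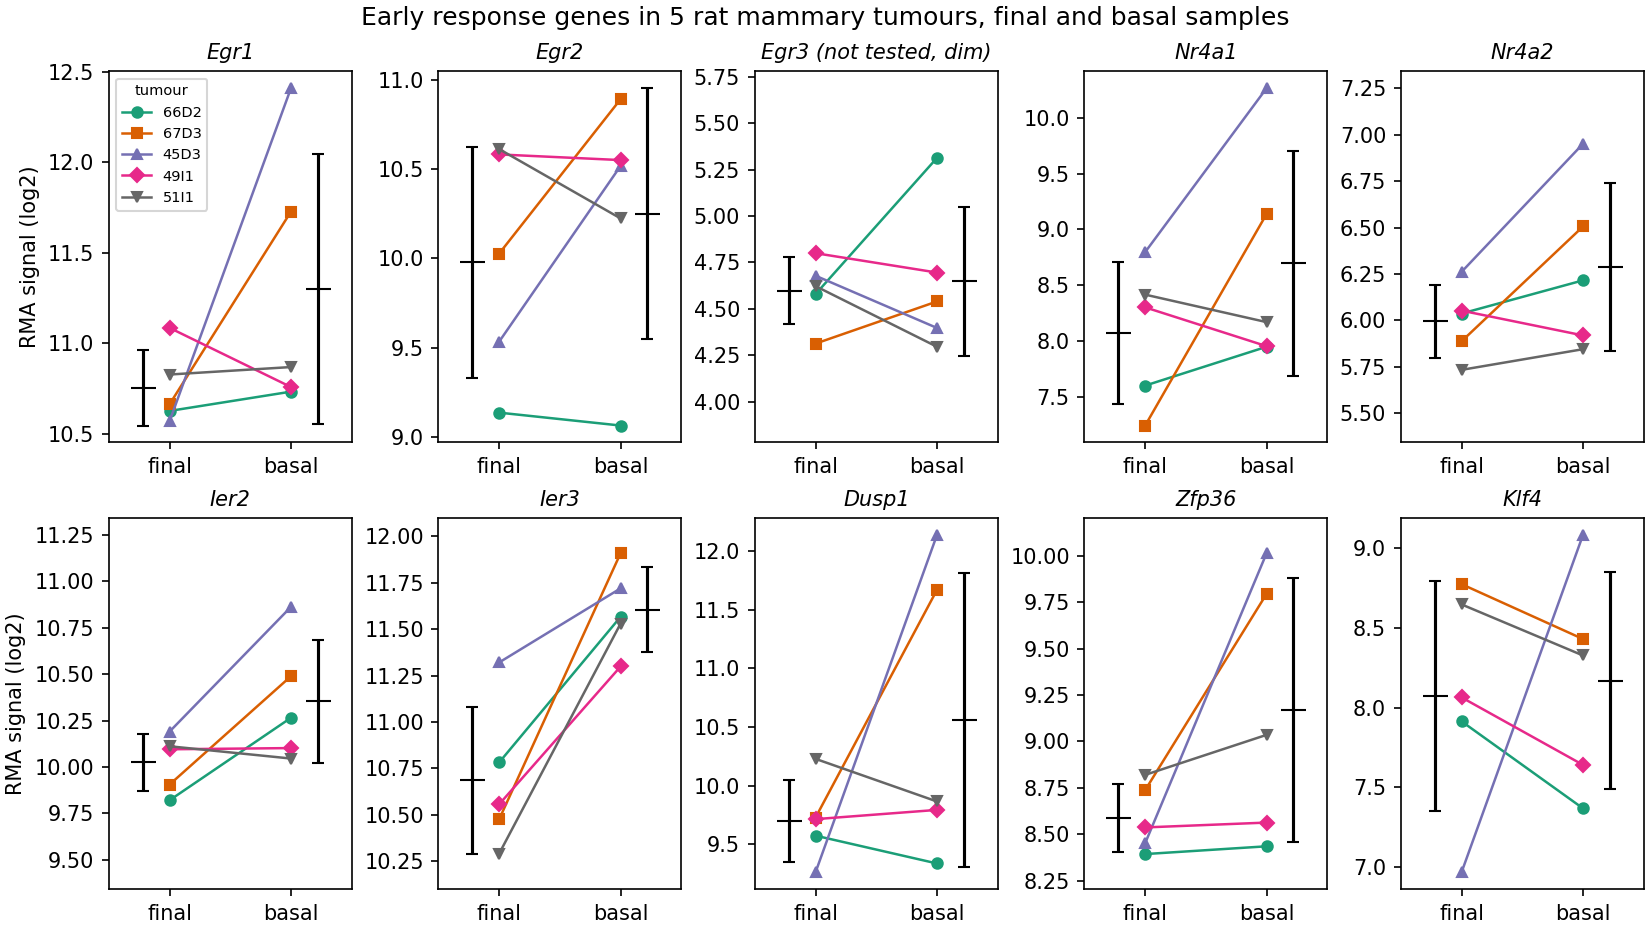
RMA signal on the log2 scale for the brightest probe set of each of the 10 genes, with final samples on the left and basal samples on the right. Coloured lines join the samples of 1 tumour, and the black marks show the mean and SD of 5 arrays. Vertical axes differ between panels, and the basal signals of 67D3 and 45D3 are the highest of the 10 arrays for Egr1, Nr4a1, Nr4a2, Ier2, Ier3, Dusp1 and Zfp36.

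Egr1 encodes a zinc finger transcription factor that binds GC-rich elements and is the best known early gene of growth factor signalling. Its signal was 10.63, 10.66, 10.57, 11.09 and 10.83 in final samples, against 10.73, 11.73, 12.41, 10.76 and 10.87 in biopsies. The 5 final samples lay within 0.52 of each other, while biopsies spread over 1.68, with 45D3 and 67D3 above all other arrays. The mean difference was -0.55 (SE 0.32, 95% interval -1.31 to 0.22, limma adjusted p = 0.688), lower in 4 of 5 tumours. In 45D3 the final signal was 3.58-fold below its biopsy and in 67D3 2.09-fold below.

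Egr2, the family member known for its role in myelinating Schwann cells, had 2 tested probe sets. The brighter, 1387306_a_at, read 9.14, 10.03, 9.53, 10.58 and 10.61 in final samples, against 9.06, 10.89, 10.52, 10.55 and 10.22 in biopsies. Final and basal samples covered nearly the same range, and tumour 66D2 was lowest at both moments. The difference was -0.27 (SE 0.23, limma adjusted p = 0.775), with 2 tumours lower and 3 higher. The dimmer probe set, 1398266_a_at, gave -0.22, and it placed the drop in 67D3 (-1.20) more than in 45D3 (-0.19), whereas the brighter one gave -0.87 and -0.98 there. All 10 of its values lay below the BioB spike-in (7.97), the least abundant control that the study used to judge sensitivity. Egr3 had signals of 4.58, 4.31, 4.68, 4.80 and 4.62 in final samples, against 5.31, 4.54, 4.40, 4.70 and 4.30 in biopsies. In 9 of the 10 arrays it was below the dim cutoff, so it cannot be placed above background.

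Promoters of 8 members were matched by symbol in the RefSeq table (build GRCr8), from 250 bases before to 50 after the annotated start. Of the 5 that hold a CArG box, the binding element of SRF, or a full cAMP response element, the binding element of CREB, 4 are shown, because these elements are the known entry points of growth factor and cAMP signals to early genes. Egr1 lies at chr18:26736828-26737127, plus strand, Egr2 at chr20:21054392-21054691, minus strand, Dusp1 at chr10:17184603-17184902, plus strand, and Ier2 at chr19:40399123-40399422, plus strand. Capitals mark the CArG boxes in the Egr promoters and the cAMP response elements in the Dusp1 and Ier2 promoters.
Egr1: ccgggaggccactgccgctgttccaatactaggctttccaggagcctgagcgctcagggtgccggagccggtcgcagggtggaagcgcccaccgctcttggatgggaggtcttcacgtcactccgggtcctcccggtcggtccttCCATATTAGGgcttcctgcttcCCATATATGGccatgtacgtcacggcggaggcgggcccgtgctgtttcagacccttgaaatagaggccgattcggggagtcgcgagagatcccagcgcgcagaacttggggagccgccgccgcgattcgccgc
Egr2: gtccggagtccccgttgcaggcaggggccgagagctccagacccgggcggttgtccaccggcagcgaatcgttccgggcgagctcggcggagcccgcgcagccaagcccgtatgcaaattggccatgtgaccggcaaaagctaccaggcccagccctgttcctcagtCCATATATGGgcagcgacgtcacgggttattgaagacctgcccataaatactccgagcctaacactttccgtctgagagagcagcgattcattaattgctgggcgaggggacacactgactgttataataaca
Dusp1: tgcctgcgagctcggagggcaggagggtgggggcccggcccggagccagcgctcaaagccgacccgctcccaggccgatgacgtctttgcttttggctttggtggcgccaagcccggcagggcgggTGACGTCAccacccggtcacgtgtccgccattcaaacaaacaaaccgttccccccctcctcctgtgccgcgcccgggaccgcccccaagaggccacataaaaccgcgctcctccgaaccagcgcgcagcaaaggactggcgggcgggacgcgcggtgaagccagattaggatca
Ier2: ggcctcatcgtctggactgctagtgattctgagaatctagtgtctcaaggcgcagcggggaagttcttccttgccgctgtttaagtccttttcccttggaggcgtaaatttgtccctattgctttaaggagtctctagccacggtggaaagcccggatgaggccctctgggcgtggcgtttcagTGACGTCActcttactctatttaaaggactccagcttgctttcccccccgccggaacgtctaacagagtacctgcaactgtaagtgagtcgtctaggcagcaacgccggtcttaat

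Egr1 held 2 CArG boxes, 105 and 83 bases before the start, and Egr2 held 1, which begins 83 bases before the start and has the same 10 letters, CCATATATGG, as the nearer box of Egr1. Zfp36 also matched the CArG pattern 32 bases before its start, with CCATAAAAGG. On either strand, a CArG box was present in 3 of 8 member promoters and in 1.63% of 33365 distinct promoters of the same length. The full cAMP response element, TGACGTCA, began 124 bases before the start in Dusp1 and 66 in Ier2, so it stood in 2 of 8 member promoters and in 1.83% of all. Its shorter core TGACG, which lies inside the full element on both strands, was found in 6 of 8 and in 21.2%. The Egr element GCGGGGGCG was found in Nr4a1 and Zfp36, 2 of 8, and in 2.74% of all. Its variant GCGTGGGCG, present in 0.545% of all promoters, and the NBRE AAAGGTCA that Nr4a receptors bind, present in 1.42%, were found in 0 of 8. The letters TATAAA were found only in Klf4 among the 8, and in 14.2% of all promoters. These matches describe letters in a fixed window and were not measured as binding.

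Nr4a1 and Nr4a2 encode orphan nuclear receptors whose activity is set mainly by how much of them is made. Nr4a1 read 7.60, 7.24, 8.80, 8.30 and 8.41 in final samples, against 7.95, 9.14, 10.27, 7.95 and 8.17 in biopsies. Tumour 45D3 was highest at both moments, and 67D3 was second among biopsies but lowest among final samples. The difference was -0.62 (SE 0.36, 95% interval -1.49 to 0.24, limma adjusted p = 0.683), with 3 tumours lower and 2 higher, and it was largest in 67D3 (-1.90). In 2 final and 2 basal arrays the signal lay below BioB.

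The brighter Nr4a2 probe set, 1369007_at, gave 6.04, 5.89, 6.26, 6.05 and 5.73 in final samples, against 6.22, 6.51, 6.95, 5.92 and 5.84 in biopsies. All 10 values were below BioB, so they are differences in dim signal and no fold is given. As for Nr4a1, the biopsies of 45D3 and 67D3 were on top. The difference was -0.29 (SE 0.15, limma adjusted p = 0.656), lower in 4 of 5 tumours. A second probe set, 1387410_at, was under the dim cutoff in all 10 arrays and differed by -0.046.

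Ier2 and Ier3 are small early response proteins. Ier2 is a nuclear protein induced by growth factors, and Ier3 (IEX-1) is a stress-induced regulator of cell survival that also modulates ERK signalling. Ier2 had signals of 9.82, 9.91, 10.19, 10.10 and 10.11 in final samples, against 10.27, 10.49, 10.86, 10.10 and 10.05 in biopsies. It was narrowly spread among final samples, over 0.37, and the groups overlapped through 49I1 and 51I1. The difference was -0.33 (SE 0.14, 95% interval -0.67 to 0.013, limma adjusted p = 0.637).

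Ier3 had signals of 10.78, 10.48, 11.32, 10.56 and 10.29 in final samples, against 11.57, 11.91, 11.72, 11.30 and 11.53 in biopsies. Each final sample was below the biopsy of its own tumour, and the groups met only where the final sample of 45D3 reached the biopsy of 49I1. The difference was -0.92 (SE 0.17, 95% interval -1.32 to -0.52), ranging from -0.40 in 45D3 to -1.43 in 67D3. Over the whole table its limma adjusted p was 0.413, and the exact sign-flip test over the 5 tumours gave a two-sided p of 0.0625, the smallest that 5 pairs allow. Its difference was smallest in 45D3, one of the tumours where most other members differed most. As for Klf4 (SD 0.72 in final and 0.68 in basal samples), its spread was wider in final (SD 0.40) than in basal samples (SD 0.23).

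Dusp1 encodes a nuclear phosphatase that inactivates MAP kinases and is itself induced by them, a feedback loop. Its brighter probe set, 1368146_at, read 9.57, 9.73, 9.26, 9.72 and 10.23 in final samples, against 9.34, 11.67, 12.14, 9.79 and 9.87 in biopsies. The biopsies of 45D3 and 67D3 stood above the other 8 arrays, which all lay at or below 10.23. In 45D3 the final signal was 7.35-fold below the biopsy, the largest drop of any member in any tumour, and in 67D3 3.84-fold below. The mean difference was -0.86 (SE 0.51, 95% interval -2.09 to 0.37, limma adjusted p = 0.695), with 3 tumours lower and 2 higher. The second probe set, 1368147_at, gave -0.81 with -2.08 in 67D3 and -2.31 in 45D3, so both probe sets had their largest drops in the same tumours. All 5 final and 3 basal values of the second lay below BioB.

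Zfp36 encodes tristetraprolin, which binds AU-rich elements in short-lived mRNAs and brings about their decay. Its signal was 8.39, 8.74, 8.45, 8.54 and 8.82 in final samples, against 8.43, 9.80, 10.01, 8.56 and 9.04 in biopsies. All 5 tumours were lower as deposited, with differences of -0.026 in 49I1 and -0.042 in 66D2, -0.22 in 51I1, -1.06 in 67D3 and -1.56 in 45D3. The difference was -0.58 (SE 0.25, 95% interval -1.19 to 0.027, limma adjusted p = 0.637, two-sided exact sign-flip p = 0.0625). In 49I1 the sign rested on the scaling, since the difference was 0.0066 with arrays centred on their median and 0.034 after quantile normalization.

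Klf4 encodes a Krüppel-like zinc finger factor of epithelial differentiation and cell cycle arrest. It read 7.91, 8.78, 6.97, 8.06 and 8.65 in final samples, against 7.37, 8.43, 9.08, 7.64 and 8.33 in biopsies. In 2 final and 2 basal arrays it lay below BioB. In 4 tumours there was a higher final signal, by 0.32 to 0.55, while 45D3 had the highest biopsy and the lowest final signal of all 10 arrays. The mean difference of -0.10 (SE 0.40, limma adjusted p = 0.960) therefore described no single tumour. Without 45D3 it was 0.41 (limma adjusted p = 0.152). The pattern of 4 tumours higher with 45D3 lower held for 7.95% of all tested probe sets.

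**Figure D2:**
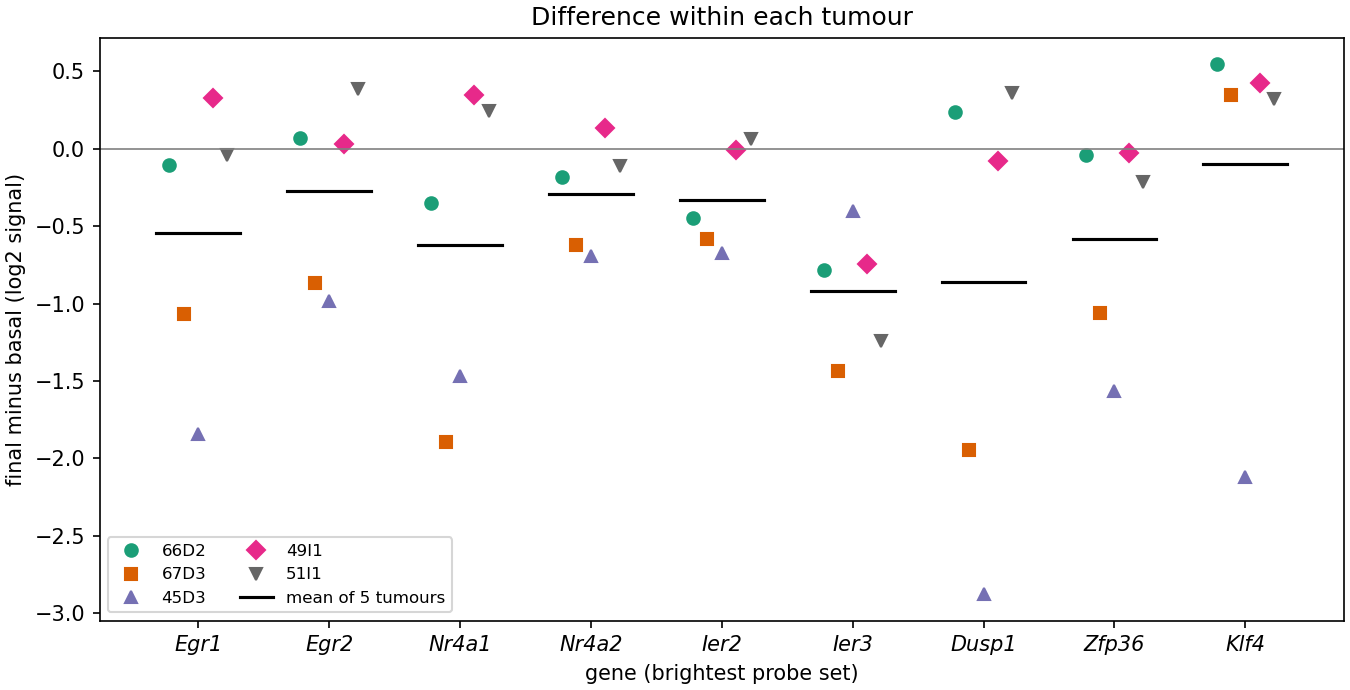
Final minus basal difference in log2 signal for each of the 9 tested genes. Symbols are the 5 tumours and the black line is their mean. The 67D3 and 45D3 symbols lie lowest for Egr1, Egr2, Nr4a1, Nr4a2, Ier2, Dusp1 and Zfp36, whereas 45D3 lies highest for Ier3 and far below the rest for Klf4.

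Set side by side, most members differed mainly in the tumours 67D3 and 45D3. The median difference of the 9 genes was -1.06 in 67D3 and -1.47 in 45D3, against -0.11 in 66D2, 0.032 in 49I1 and 0.066 in 51I1, while the median over all tested probe sets lay between -0.050 and 0.054 in each tumour. In 67D3, 8 of the 9 were lower, and in 45D3, 9 of 9, compared with 6 in 66D2, 4 in 49I1 and 4 in 51I1. Of all 18625 tested probe sets, 9465 were lower in 67D3, 8295 in 45D3, 9248 in 66D2, 10374 in 49I1 and 10407 in 51I1. Final samples were lower in both 67D3 and 45D3 for 8 of the 9, all but Klf4, against 23.6% of all tested probe sets. They were lower by over 0.5 in both 67D3 and 45D3 for 7 of the 9, against 3.9%. For 8 of the 9, Egr2 being the exception, these 2 tumours gave the 2 highest biopsies, against 20.7% of all probe sets. The SD over tumours was smaller in final than in basal arrays for 7 of the 9, against 51.2%. For Dusp1 the SD was 0.35 in final and 1.25 in basal arrays, and for Egr1 it was 0.21 in final and 0.74 in basal arrays. These patterns were chosen after the values were seen and carry no test.

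The 2 biopsies with high early gene signals were also those with the widest hexokinase 3′ minus 5′ signal. Relative to their 10-array means, the 9 genes had a median deviation between -0.43 and -0.058 in the 5 final arrays. Among biopsies it was 0.96 in 45D3 and 0.76 in 67D3, and between -0.43 and -0.14 in the other 3. With the hexokinase signal as a covariate the members' median difference was 0.066, and without 67D3 and 45D3, an alternative added after the values were seen, it was 0.060. Ier3 kept its size, at -0.97 with the covariate (limma adjusted p = 0.272) and -0.92 without those tumours (limma adjusted p = 0.122). The part of RNA quality in the members' values, Ier3 among them, was not tested beyond these fits.

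**Figure D3:**
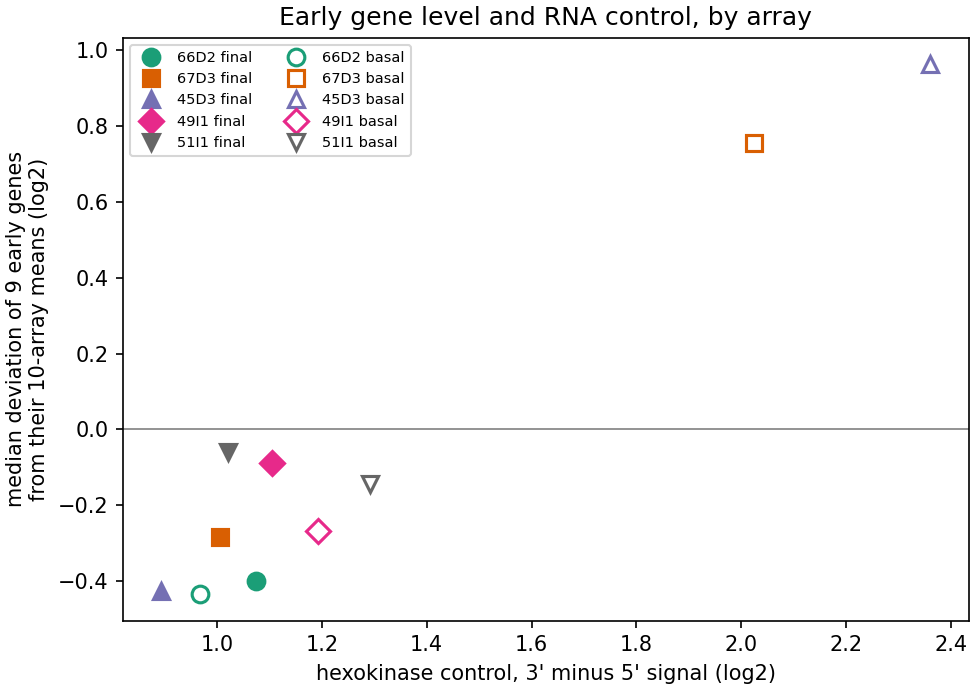
Median deviation of the 9 tested genes from their 10-array means, in log2 signal, against the 3′ minus 5′ log2 signal of the hexokinase control, for each array. Filled symbols are final and open symbols basal samples. The biopsies of 67D3 and 45D3 lie apart at the upper right, and the other 8 arrays lie below 0 on the vertical axis and at or below 1.29 on the horizontal axis.

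Markers of other cell types also differed between final and basal samples, in tumours that varied with the cell type. The 7 macrophage markers measured, none under the dim cutoff, had a median difference of -0.84 in 67D3 and -0.70 in 45D3, against 0.89 in 66D2, -0.53 in 49I1 and 0.99 in 51I1. Their summed linear signal ranged from 4717 to 13414 in final and from 6116 to 8751 in basal arrays. The 7 mast cell markers had a median of -3.06 in 67D3 and -0.34 in 45D3, against -0.89 in 66D2, -0.82 in 49I1 and 0.30 in 51I1. Mast cell sums were 428 to 8207 in final and 558 to 9008 in basal arrays. Of 8 skeletal muscle markers on the array, Myh4 was under the cutoff. The median of the other 7 was 6.58 in 67D3 and 0.19 in 45D3, against 4.37 in 66D2, 2.64 in 49I1 and 0.19 in 51I1. Muscle sums were 1783 to 36218 in final and 1460 to 2803 in basal arrays. On average the basal sums were mostly Myh1, with a basal mean of 10.49 and a difference of 0.11. The next highest basal mean was 6.80, for Tnni2. Among neutrophil markers Csf3r, Cxcr2 and Mmp8 were under the cutoff. The other 3 had medians of -0.33 in 67D3 and -0.11 in 45D3, against 2.22 in 66D2, 1.02 in 49I1 and 0.63 in 51I1. Neutrophil sums were 6759 to 14782 in final and 6440 to 15878 in basal arrays. They were mostly Lcn2, with a mean signal of 12.98 in final and 13.15 in basal arrays. The means were 6.97 and 6.11 for S100a8, and 7.86 and 7.07 for S100a9. Lcn2 differed by -0.18, S100a8 by 0.86 and S100a9 by 0.78. With the muscle signal as a covariate the members' median difference was -0.62 and 0 members passed (limma adjusted p = 1 for each). Ier3 was then -0.69, Nr4a1 -0.17, Egr2 -0.11, Ier2 -0.20 and Klf4 -0.78. The part of the other cell types in the early gene signals was not tested.

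Other early genes were followed through fixed lists, of which 0 genes passed the adjusted threshold. For reference, 50% of all tested probe sets had a lower mean in final samples, and 4.59% were lower at an unadjusted p under 0.05 in limma. In the AP-1 family, 7 of 8 tested genes had a lower mean in final samples and 6 had an unadjusted p under 0.05, with a list median of -0.69. Jun differed by -0.75, Atf3 by -1.34, Fos by -0.82 and Junb by -0.38 (limma adjusted p from 0.413 to 0.579). The median difference of that family was negative in every tumour. It was -0.46 in 66D2, -0.41 in 49I1 and -0.84 in 51I1, beside -0.76 in 67D3 and -0.98 in 45D3. Whether the lists differ in this was not tested.

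The list of relatives and partners held 14 tested genes, 8 with a lower and 6 with a higher mean in final samples, and a median of -0.038. The ERK phosphatases Dusp6 and Dusp5 differed by -0.31 and -0.33 (limma adjusted p = 0.611 for each), and they were the 2 genes of the list at an unadjusted p under 0.05. Klf10, a TGF-beta induced relative of Klf4, differed by 0.36, and Ier5, a relative of Ier2, by 0.20. Nab1 and Nab2, corepressors that bind Egr proteins, differed by -0.021 and 0.099, while Zfp36l1 and Zfp36l2, the close relatives of Zfp36, differed by 0.040 and -0.24. Egr4, Dusp4 and Dusp10 were under the dim cutoff.

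Of 35 other early response genes tested, 25 had a lower and 10 a higher mean in final samples, with a median of -0.17 and 6 at an unadjusted p under 0.05, all lower. Those with the smallest p were Errfi1, a feedback inhibitor of EGF receptors (-0.61), Ppp1r15a, a phosphatase subunit of the stress response (-0.46), Sik1, a kinase induced by cAMP (-0.45), and Hbegf, an EGF receptor ligand (-0.59). Like Ier3 they were lower in all 5 tumours, and their limma adjusted p lay between 0.413 and 0.550.

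The kinases and factors upstream of the early genes showed no common direction, with 6 of 12 lower, 6 higher and a list median of 0.042. Of 22 genes listed, 12 were named on the array. Srf differed by -0.095 and Creb1 by -0.10, the ERK kinases Map2k1 and Map2k2 by -0.11 and 0.10, the stress kinase Mapk8 by -0.17 and the SRF partner Elk3 by 0.23. Egfr, the EGF receptor, was higher in all 5 tumours, by 0.41 on average (limma adjusted p = 0.601). Among mRNAs that Zfp36 is known to bind in mouse or human cells, 6 of 7 tested had a lower mean, and the list median was -0.47. The neutrophil chemokine Cxcl1 differed by -1.13, the angiogenic factor Vegfa by -0.93 and the cytokine Il1b by -0.88 (limma adjusted p = 0.413, 0.562 and 0.593). The chemokine Cxcl2 differed by -0.47 (limma adjusted p = 0.769). The list's 4 other genes, Tnf, Il6, Csf2 and Ptgs2, were under the dim cutoff.

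**Figure D4:**
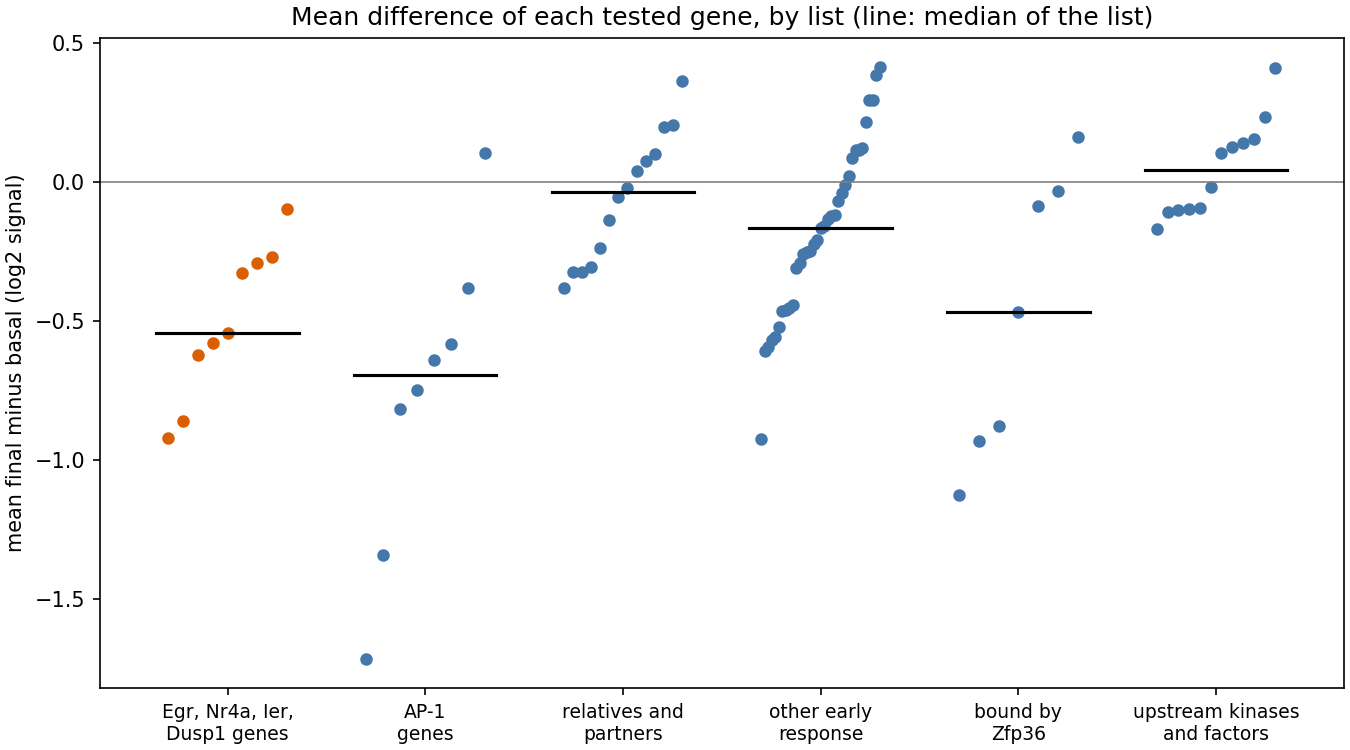
Mean final minus basal difference in log2 signal of every tested gene in 6 lists, each point 1 gene and each black line the median of its list. The Egr, Nr4a, Ier and Dusp1 genes all lie below 0, as do 7 of 8 AP-1 genes, while relatives, partners and upstream factors lie on both sides of 0.

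The genes closest to the members' tumour pattern were found by the root mean square distance between a gene's 5 differences and the members' median difference in each tumour, over 10830 other tested genes. The nearest were Zfp457 (0.20), Adamts10 (0.21), Lcat (0.22), Atg16l2 (0.23) and Izumo4 (0.26). Lcat, the plasma enzyme that esterifies cholesterol, differed by -0.87 in 67D3 and -1.64 in 45D3, and Zfp457, an uncharacterised zinc finger gene, by -0.72 and -1.38. Of the members themselves Zfp36 (0.14) and Egr1 (0.22) lay closest to that median, of which they are part, and Ier3 (0.90), Klf4 (0.78) and Dusp1 (0.77) farthest.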

How the data were processed

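Biotin-labelled cRNA of 10 tumour samples was measured on Affymetrix rat genome arrays, per the labels. The authors deposited log2 signals made with RMA (named in the submitters' processing notes and the design text, with no version). That they are log2 values was read from their range and the near-equal array medians. RMA equalises the distributions of the arrays, which hides any shift in total RNA. The table held 31099 probe sets, of which 57 were controls. Of the other 31042, the platform annotation of 2016 gave 1 symbol to 20826, several to 436 and none to 9780. No value column was left unused, and arrays give no read depth; their number limits the precision.

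The dimmest 40% of non-control probe sets by mean over 10 arrays (below 5.14) were left out, which kept 18625. Differences, final minus basal, came from lmFit and eBayes of limma 3.58.1 under R 4.3.3 (tumour as a fixed block, 4 residual and 2.64 prior degrees of freedom) and adjusted over all 18625 probe sets by Benjamini-Hochberg, with a threshold of 0.05. The fit was tested on simulated data. A gene with several probe sets is represented by the brightest, and the others are given beside it. The block follows the tumour identifier that both samples of a tumour share in the labels. The correlation of deviations from the group means between the 2 arrays of a tumour was 0.72 for 66D2 and 0.474 for 67D3. It was 0.292 for 49I1, 0.175 for 51I1 and -0.162 for 45D3, and -0.072 on average between arrays of different tumours. In 4 tumours the final array correlated best with its own biopsy, but in 45D3 with that of another tumour. Sign-flip tests enumerated all 32 sign patterns. Promoters came from RefSeq (GRCr8).

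The members, lists, motifs and tests were chosen with earlier results of these data known. The naming rule took all 10 members, up to 4 genes of each other early gene list by smallest p, and the 5 genes nearest in pattern; Nab1, Nab2, Zfp36l1, Zfp36l2, Srf, Creb1, Map2k1, Klf2, Id1, Id3 and Rgs1 are named outside it. Skin keratinocyte, adipocyte and endothelial markers were also listed, with median differences of -0.022, 0.97 and 0.43 over their tested genes. Alternatives covered the filter, the pairing, the normalization, the variance model, array weights, covariates, the methods' t-test and leaving out each tumour.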

Additional observations from a re-analysis of the deposited data

How the results depend on the processing

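The limits are 5 pairs and no later sample without hydroxytyrosol. Among all probe sets, none passed in limma under any alternative but the hexokinase covariate, where 2 did (Ccn3 and an unnamed probe set), and 1494 had an unadjusted p under 0.05 in the reported fit, against 1394 by the methods' t-test, which also gave 0 after adjustment. No member passed under any of the 20 alternatives, the lowest limma adjusted p being 0.114, for Ier3 with the tumour as a random block. With no replicate block 0 members passed, as with the block, and the pairing changed no call. The members' median difference of -0.55 ranged from -0.72 to -0.24 when 1 tumour was left out. It was -0.24 without 45D3, -0.31 without 67D3 and -0.31 with array weights. It turned to 0.066 with the hexokinase covariate, where Egr1 was 0.15, Egr2 0.18, Nr4a1 0.066, Dusp1 0.30 and Klf4 0.65. Without 67D3 and 45D3, added after the values were seen, the median was 0.060, with Egr1 at 0.060, Egr2 0.16, Nr4a1 0.082, Dusp1 0.17 and Klf4 0.43. Klf4 was also positive with array weights (0.27) and ranged from -0.26 to 0.41 when 1 tumour was left out (0.41 without 45D3). Those are 12 reversals among 178 values, many of which could not reverse. The filters, the block settings, the variance model and the t-test leave the difference itself unchanged. The skeletal muscle covariate reversed none, but Klf4 became -0.78, against -0.097 as reported, while Nr4a1 became -0.17, Egr2 -0.11 and Ier2 -0.20. The count of members lower in every tumour, 2, was 1 with arrays centred on their median and 1 after quantile normalization, Zfp36 being the gene lost in both, and it ranged from 2 to 4 when 1 tumour was left out, with 4 without 49I1 and 3 without 51I1. The cause of these changes was not tested. With a tumour left out, fewer tumours have to be lower, so those counts are easier to reach. Their share over all probe sets was not taken. Signals of Egr3, Nr4a2 and the dimmer Egr2 probe set lay below BioB, so their differences are uncertain.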

Other observations

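Klf4 was not alone in its drop in 45D3. Klf2, a related factor of endothelium and lymphocytes, differed by -2.63 in 45D3, against 1.64 in 51I1, 1.31 in 66D2, 0.42 in 49I1 and 0.29 in 67D3. Id1 and Id3, inhibitors of basic helix-loop-helix factors and targets of BMP signalling, differed by -2.06 and -2.20 in 45D3, by 1.04 and 1.42 in 66D2, by 2.38 and 1.54 in 67D3, and by 1.12 and 1.44 in 51I1. Unlike Klf4 (0.42), they were also lower in 49I1, with -0.56 for Id1 and -0.13 for Id3. A drop of over 2 in 45D3 with higher final signals in 66D2 and 67D3 was seen in 0.408% of tested probe sets. These genes were picked after their values were seen. The endothelial markers measured had a median difference of -0.79 in 45D3, 1.11 in 66D2, 0.56 in 67D3, -0.16 in 49I1 and 1.47 in 51I1. The part of endothelial cells in the values of these genes was not tested.

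Rgs1 and Il1b, early genes of immune cells, had their largest drops in the tumours where Dusp1 did. Rgs1, a brake on G protein signalling in lymphocytes, differed by -3.24 in 67D3 and -1.84 in 45D3 but by -0.24, 0.52 and 0.18 in 66D2, 49I1 and 51I1. Il1b differed by -2.22 in 67D3 and -1.29 in 45D3, and by -0.012, -0.61 and -0.26 in 66D2, 49I1 and 51I1. Unlike Rgs1 and Dusp1, it was lower in all 5 tumours. A drop of over 1 in both 67D3 and 45D3 was seen in 0.773% of tested probe sets and in 4 of the 9 tested members. Rgs1 and this cut were picked after the values were seen, so the shares carry no test.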
